A study of Mus musculus with 10 samples.

Results

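The 10 genes described here make and receive signals that set the tone and the leakiness of vessels: the nitric oxide synthase Nos3, the endothelin genes Edn1, Ece1, Ednra and Ednrb, the angiotensin-converting enzyme Ace, and the adrenomedullin genes Adm, Calcrl, Ramp2 and Ramp3. They were chosen by symbol for their function, and each symbol matched 1 of the 55401 gene identifiers in the count table. CPM values are the counts of a gene scaled to a total of 1000000 per replicate.

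RNA was sequenced from meningeal lymphatic endothelial cells (LECs) of wild-type female C57BL/6 mice (C57BL/6J in the study's methods), 3 months old, either left unstressed (naive, 5 replicates) or exposed to sub-chronic variable stress for 6 days (SCVS, 5 replicates). SCVS is a series of changing mild stressors, and no transgene or other treatment separated the groups. Cells of the dura mater were pooled from 3 to 4 animals per replicate and sorted as CD45-CD31+PDPN+. The comparison asks how stress alters the transcripts of these cells.

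Nitric oxide made by endothelium diffuses to the smooth muscle around a vessel and relaxes it, whereas endothelin-1 contracts it. Endothelin-1 is cut from a precursor by a converting enzyme and acts through an A receptor, best known on muscle, and a B receptor, which endothelium carries. Adrenomedullin binds the receptor Calcrl, which reaches the cell surface only with a RAMP co-receptor, and this pathway is required for the development and the junctions of lymphatic vessels.

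Totals lay between 9984743 and 14094155 counts per replicate, so that the 3 counts taken as the limit of detection stood for 0.213 to 0.3005 CPM. The defining lymphatic genes Prox1 and Pdpn were each above that limit in 4 of 5 naive replicates, and in 4 and 5 of the SCVS replicates. The summed CPM of the 8 blood endothelial markers exceeded that of the 9 lymphatic markers in every replicate. The lymphatic sum ranged from 74.4 to 2929 CPM in naive and from 471 to 3243 CPM in SCVS replicates. The lowest lymphatic sum was that of Naive replicate 1, in which 5 of the 9 lymphatic markers were above the limit. The blood endothelial sum ranged from 313 to 10273 CPM in naive and from 5219 to 9324 CPM in SCVS replicates. The values below are therefore those of the sorted fraction, in which lymphatic transcripts were measured beside abundant blood endothelial ones. Naive replicate 5 stood apart, with a pan-endothelial score (the mean log2(CPM + 1) of 8 genes) of 4.41 against 8.12 to 9.39 in the other replicates. Its neuronal and glial score, 7.99, was the highest of the 10. It had the lowest CPM of all 10 replicates for 5 of the 9 genes tested here and the lowest of the naive group for 6, so the differences of these 9 genes are given with and without it. In such pooled RNA, fewer cells of a type and less RNA per cell cannot be told apart.

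Compared per length, the adrenomedullin co-receptors Ramp2 and Ramp3 stood at the top of the set and Ednra at the bottom. Levels in reads per kilobase of exon and per 1000000 counts (RPKM), as mean ± SD over the 10 replicates, were 147 ± 74.7 for Ramp2 and 143 ± 75.0 for Ramp3. Ednrb followed at 56.6 ± 44.4, Ece1 at 51.1 ± 30.1 and Calcrl at 43.1 ± 23.9. Adm stood at 36.5 ± 51.8, Edn1 at 26.7 ± 25.6, Nos3 at 11.3 ± 9.15 and Ace at 3.24 ± 2.85 RPKM. Neighbours in this order mostly did not differ beyond their spread: the mean difference between neighbours exceeded its SD over replicates only for Ramp3 over Ednrb (86.9 ± 83.1 RPKM) and for Ace over Ednra (3.14 ± 2.96 RPKM). Ramp2 was above Ramp3 in 4 of 10 replicates. The length used for Ramp2, 3301 bases in GENCODE M1, is longer than the whole RefSeq gene of 1917 bases. With the shorter length its mean was 253 ± 129 RPKM, above Ramp3 in 9 of 10 replicates. The 1917 bases are the whole span of the gene, so by RefSeq exons alone this mean would be no lower.

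**Figure D1:**
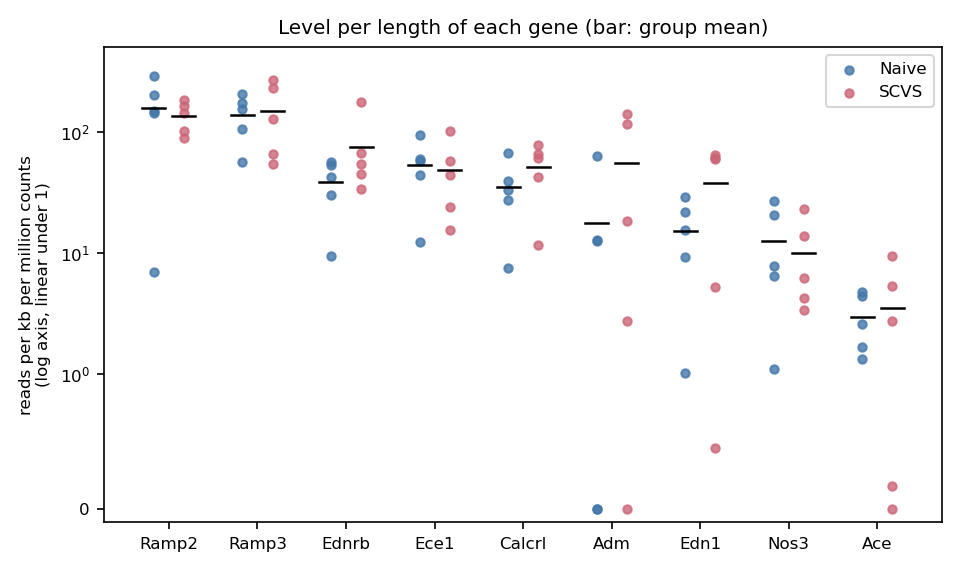
Level of 9 genes per length (vertical axis, reads per kilobase per 1000000 counts, logarithmic above 1 and linear below) in naive (blue) and SCVS (red) replicates, ordered by mean over all replicates. Points are replicates and bars are group means. Ramp2 (by its GENCODE M1 length, which exceeds the RefSeq gene) and Ramp3 have means of 147 and 143, and Ace has a mean of 3.24. Ednra, at 0.099, is not drawn.

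No difference between SCVS and naive replicates passed the test in any of the 9 genes that could be tested. edgeR's quasi-likelihood test called 0 of them at an adjusted p under 0.1 (0% of all 14815 genes tested were called) and 0 had an unadjusted p under 0.05 (3.1% of all genes). DESeq2 called 0 of the 9 (0.814% of 13998 genes). In no gene did the 2 groups fail to overlap in CPM (0.628% of all genes did). The log2 fold change of SCVS over naive was above 0 in 6 of the 9 genes, against 48.2% of all genes, with a median of 0.18 against -0.03. All 9 intervals of the fold change, at 95% confidence, held 0. In 7 of the 9 genes the standard error was larger than the fold change itself. The 10th gene, Ednra, did not reach more than 5 counts in at least 3 replicates and was left out of the test.

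**Figure D2:**
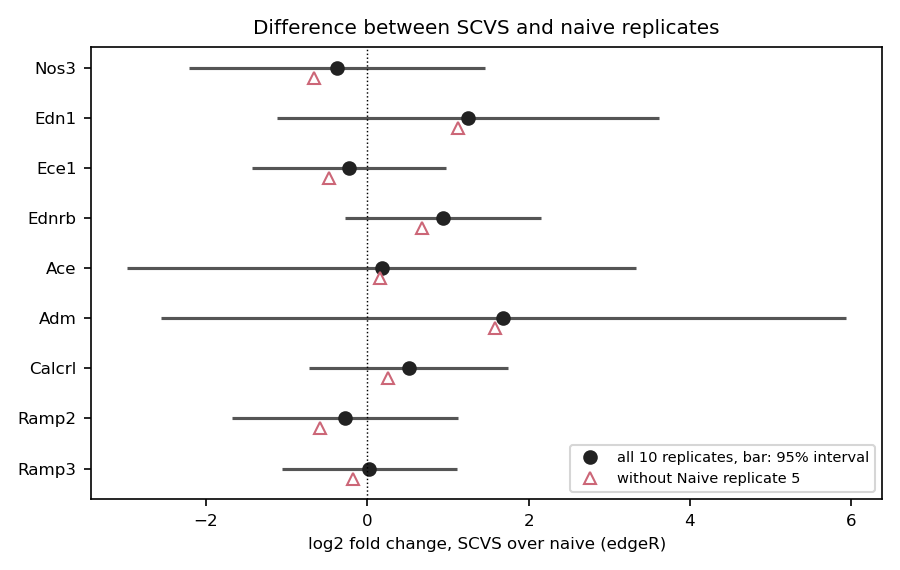
Log2 fold change of SCVS over naive (horizontal axis) for the 9 tested genes, with 95% intervals from edgeR over all 10 replicates (black) and the estimate without Naive replicate 5 (open triangles). Every interval crosses 0. Ramp2 moves from -0.28 to -0.58 without that replicate.

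Nos3 encodes endothelial nitric oxide synthase (chromosome 5, 24364816 to 24384474, all positions being those of RefSeq on GRCm38). Naive replicates 1 to 5 had 32.5, 85.4, 111, 26.6 and 4.58 CPM. SCVS replicates 1 to 5 had 13.9, 56.5, 17.4, 25.5 and 95.045 CPM. Each group held high and low replicates, and all SCVS values lay between the lowest and the highest naive value. The log2 fold change was -0.37 (SE 0.84, 95% interval -2.21 to 1.47, edgeR adjusted p = 1.0), and -0.67 without Naive replicate 5. Nos3 overlaps Atg9b and Gm15587, so reads from the overlap cannot be assigned with certainty, since the use of strand is not stated.

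Edn1, the endothelin-1 precursor (chromosome 13, 42301476 to 42307990), fell into high and low values within the SCVS group. SCVS replicates 1, 2 and 5 had 138, 143 and 151 CPM, all above the highest naive value, whereas SCVS replicates 3 and 4 had 1.05 and 12.3 CPM. The naive replicates had 2.40, 68.4, 50.7, 36.0 and 21.9 CPM. The high SCVS replicates therefore stood beside the lowest value of all 10, and the log2 fold change of 1.25 (SE 1.08, 95% interval -1.12 to 3.62, edgeR adjusted p = 1.0) was not separable from the spread. Without Naive replicate 5 it was 1.12. SCVS replicates 3 and 4 were also those with the highest lymphatic marker scores, 7.31 and 7.35 against 1.91 to 7.27 in the other replicates. The naive replicates went the other way. Naive replicate 2, with a score of 7.27, had the highest naive Edn1 value, and Naive replicate 1, with 1.91, had the lowest. The part of cell composition in the Edn1 values was not tested.

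Ece1 encodes the enzyme that releases active endothelin-1 (chromosome 4, 137862237 to 137965229, overlapping Gm13012 and Gm52683). It was counted strongly in every replicate, from 65.0 to 498 CPM in naive (median 304) and from 82.6 to 538 CPM in SCVS (median 233). The fold change was -0.23 (SE 0.55) on the log2 scale, and -0.47 without Naive replicate 5.

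The endothelin receptors differed sharply from each other. Ednrb, the B receptor (chromosome 14, 103814615 to 103844508, overlapping Gm35197), had 171, 216, 225, 121 and 38.5 CPM in naive replicates 1 to 5. It had 180, 272, 137, 704 and 219 CPM in the SCVS replicates. SCVS replicate 4 was far above the rest, and 4 of 5 SCVS values exceeded the naive median. The log2 fold change was 0.93 (SE 0.56, 95% interval -0.28 to 2.15, unadjusted p = 0.120, edgeR adjusted p = 1.0), the smallest p of the 9 genes, and 0.68 without Naive replicate 5. Without SCVS replicate 4 it was 0.32.

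Ednra, the A receptor (chromosome 8, 77663029 to 77724452, overlapping 3 annotated genes), was at 0 to 2 counts in 9 of the 10 replicates. SCVS replicate 4 held 65 counts (4.91 CPM). The same replicate had the highest leukocyte marker sum, 3383 CPM, and a neuronal and glial score of 6.17. Higher neuronal and glial scores, 6.54 in SCVS replicate 5 and 7.99 in Naive replicate 5, stood beside 1 and 0 counts of Ednra. The mural marker score of SCVS replicate 4 was 3.03, the lowest of the SCVS group. Its summed mural CPM was 3076, the median of that group. The part of other cell types in these counts was not tested.

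Ace, which converts angiotensin I and also degrades bradykinin (chromosome 11, 105967948 to 105989964, overlapping Gm11651), was low throughout. Naive replicates had 7.005, 23.4, 8.94, 25.1 and 13.7 CPM. SCVS replicates had 49.8, 28.1, 0, 0.907 and 14.4 CPM. The SCVS group held the 2 highest and the 2 lowest values, and the low pair were SCVS replicates 3 and 4, as for Edn1. The log2 fold change was 0.18 (SE 1.44, 95% interval -2.98 to 3.33), 0.15 without Naive replicate 5, and -1.65 with voom.

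Adm, the adrenomedullin precursor (chromosome 7, 110627657 to 110629820, overlapping Gm28863), varied most. It had 0 counts in Naive replicates 1 and 3 and in SCVS replicate 1. The other naive replicates had 88.2, 17.7 and 17.4 CPM, and SCVS replicates 2 to 5 had 3.78, 160, 194 and 25.5 CPM. The 2 highest values were those of SCVS replicates 3 and 4, in which Edn1 and Ace were low. Its pooled SD of 3.08 on the log2 scale was higher than that of 99.0% of all genes tested. The fold change of 1.69 on the log2 scale had an SE of 1.94 (95% interval -2.56 to 5.94, edgeR adjusted p = 1.0), and it was 1.59 without Naive replicate 5. It rested more on other replicates, at 3.16 without Naive replicate 2 and 1.00 without SCVS replicate 4.

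**Figure D3:**
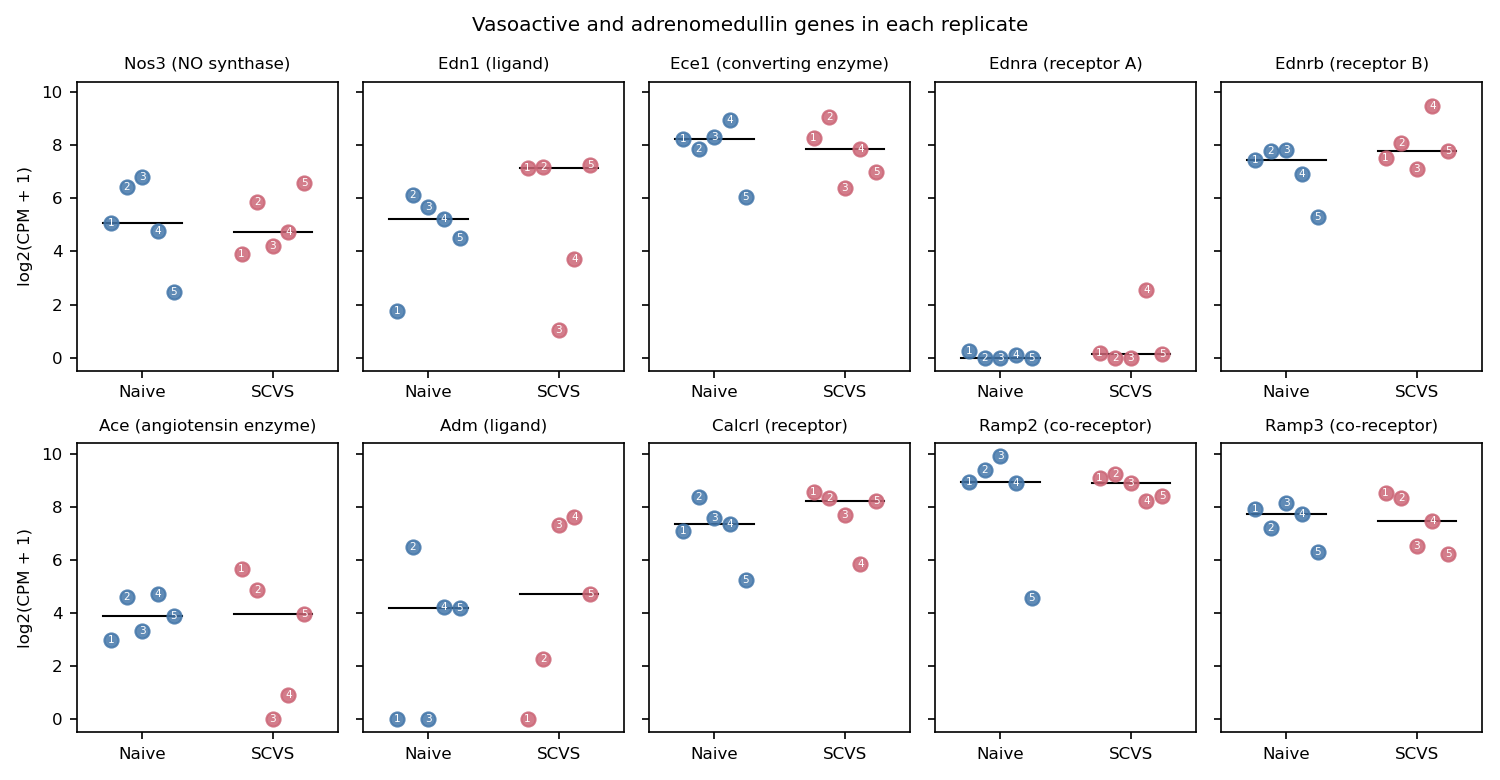
Level of each of the 10 genes in each replicate (vertical axis, log2(CPM + 1)), naive in blue and SCVS in red. The number in a point is the replicate and the line is the median of the group. Groups overlap in every panel, Naive replicate 5 is lowest for Ramp2 (23.0 CPM), and SCVS replicates 3 and 4 are low for Edn1 and Ace and high for Adm.

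The receptor and co-receptor genes of adrenomedullin varied less between replicates than the ligand, with pooled SDs of 1.13, 1.55 and 0.90 on the log2 scale for Calcrl, Ramp2 and Ramp3. Calcrl (chromosome 2, 84330626 to 84425405), the G-protein-coupled receptor, had 134, 326, 191, 161 and 36.6 CPM in naive replicates. It had 376, 322, 206, 56.4 and 295 CPM in SCVS replicates. The lowest replicates were Naive 5 and SCVS 4, and 4 of 5 SCVS values lay above the naive median. The log2 fold change was 0.51 (SE 0.56, 95% interval -0.72 to 1.75) and fell to 0.26 without Naive replicate 5.

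Ramp2, the co-receptor that with Calcrl forms the main adrenomedullin receptor (chromosome 11, 101246334 to 101248250), had 489, 668, 956, 474 and 23.0 CPM in naive replicates. It had 539, 607, 470, 293 and 335 CPM in SCVS replicates. Naive replicates 2 and 3 lay above every SCVS value, and Naive replicate 5 lay far below all others. The log2 fold change was -0.28 (SE 0.64, 95% interval -1.68 to 1.13). Without Naive replicate 5 it was -0.58 (SE 0.30, unadjusted p = 0.0765, edgeR adjusted p = 1.0). The pan-endothelial score of that replicate, given above, was low as well, and its part in the Ramp2 value was not tested.

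Ramp3, the alternative co-receptor (chromosome 11, 6658506 to 6677478, overlapping Gm11978), had 239, 145, 281, 211 and 77.9 CPM in naive replicates. It had 368, 317, 90.3, 177 and 74.1 CPM in SCVS replicates. By the pooled SD on the log2 scale it varied least of the 9 tested genes, and 23.4% of all genes had a lower SD. By the SD of CPM as a percentage of the mean, Ramp2 varied slightly less over the 10 replicates (50.8% against 52.3%). That percentage was 29.7% for Ramp2 and 64.5% for Ramp3 in SCVS replicates, and 65.1% and 42.0% in naive replicates. The fold change of Ramp3 was 0.02 on the log2 scale (SE 0.50, 95% interval -1.06 to 1.11) and -0.17 without Naive replicate 5.

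The share of Ramp3 in the summed co-receptor level per length was 54.0% ± 21.2 in naive and 48.6% ± 14.4 in SCVS replicates (SD, n = 5 each), with ranges of 34.1% to 89.0% and 31.5% to 62.0%. The highest share was that of Naive replicate 5. With the shorter length of Ramp2, shares ran from 21.1% to 82.5%. Per length, with the 3301 bases of GENCODE M1 for Ramp2, Ramp2 exceeded Calcrl in 9 of 10 replicates. Naive 5 was the exception at a ratio of 0.927. The shorter length of Ramp2 would raise each of these ratios, so this exception depends on the length used. Ramp3 exceeded Calcrl in 9 of 10 replicates, with SCVS 5 as the exception at 0.890.

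Across the 10 replicates, 4 relations were computed on log2(CPM + 1) with permutation tests. Calcrl and Ramp2 rose together (Pearson r = 0.765, permutation p = 0.0102, adjusted over the 4 relations 0.0241), with Spearman's rho of 0.612 (permutation p = 0.0670, adjusted 0.134). Leaving out Naive replicate 5 and SCVS replicate 4, the 2 farthest from the median of Calcrl, took r to 0.00306, so the relation rests on those replicates. Without Naive replicate 5 alone, r was 0.470 (permutation p = 0.203), and without SCVS replicate 4 alone it was 0.837.

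Nos3 and the blood endothelial score gave r = 0.728 (permutation p = 0.0120, adjusted 0.0241) and rho = 0.612 (permutation p = 0.0661, adjusted 0.134). Without Naive replicate 5 and SCVS replicate 3, r was 0.267. It was 0.740 without SCVS replicate 3 alone and 0.441 without Naive replicate 5 alone, so this relation rests mainly on Naive replicate 5. Adm and Calcrl gave r = -0.26 (permutation p = 0.469, adjusted 0.469) and rho = -0.13 (permutation p = 0.729, adjusted 0.729), with r = -0.38 without Naive replicates 1 and 3. Calcrl and the lymphatic score gave r = 0.282 (permutation p = 0.437, adjusted 0.469) and rho = 0.176 (permutation p = 0.633, adjusted 0.729), with r = -0.48 without Naive replicates 1 and 5. Within a group, 5 replicates are too few for a correlation.

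**Figure D4:**
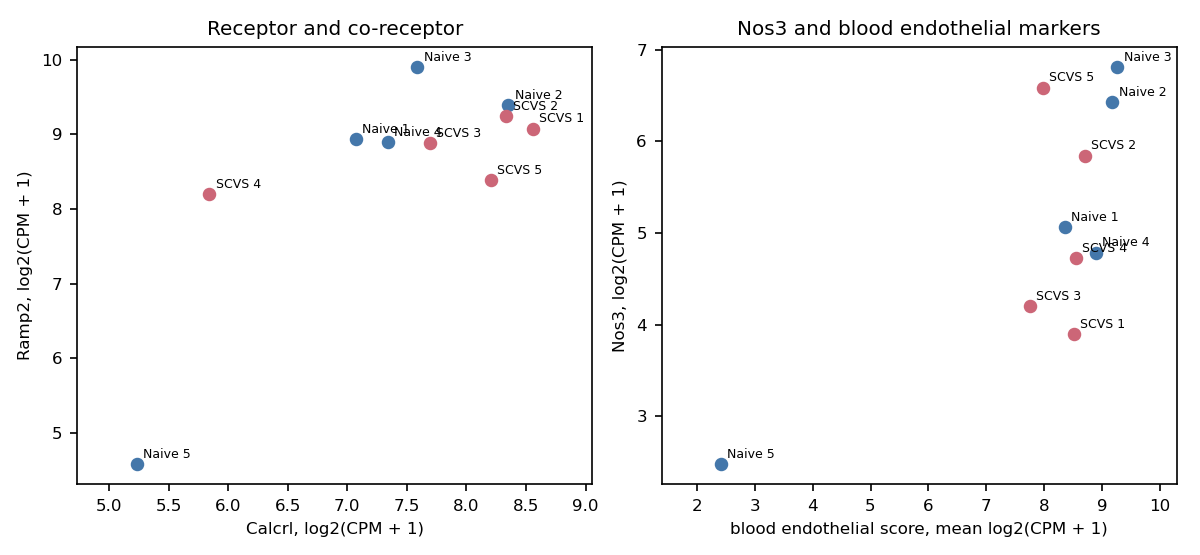
Ramp2 against Calcrl (left, both axes log2(CPM + 1)) and Nos3 against the blood endothelial score, the mean log2(CPM + 1) of 8 genes (right), in naive (blue) and SCVS (red) replicates. In both panels Naive replicate 5 is the lowest and the farthest to the left. On the Calcrl axis SCVS replicate 4 lies next to it (56.4 against 36.6 CPM). Without Naive replicate 5, r falls from 0.765 to 0.470 and from 0.728 to 0.441.

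The gene most like each member over the 10 replicates, by Pearson's r of log2(CPM + 1) among all tested genes, was given as a description. For Ramp2 it was Tek, the angiopoietin receptor of endothelium (r = 0.989), and 189 genes had an r above 0.9 with Ramp2. Without Naive replicate 5, r with Tek was 0.891. For the other 8 members, between 4 and 24 genes did. Ece1 was nearest to Tmbim1 (0.962), Ramp3 to Rab11fip5 (0.957), Edn1 to Abhd17c (0.954) and Ace to Zbtb45 (0.952). Adm was nearest to Dipk2a (0.951), Ednrb to Trim30a (0.949), Calcrl to Gm8894 (0.932) and Nos3 to Itm2a (0.931). Gm8894 averaged only 1.40 CPM in naive and 1.51 CPM in SCVS replicates, and its r was 0.887 without Naive replicate 5. Each r is the highest among all tested genes, and how high chance alone would take it was not tested.

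The wider pathways held 42 further genes, all in the table, of which 29 were tested. Of these, 12 had higher and 17 lower estimates in SCVS replicates, with a median log2 fold change of -0.26. Both edgeR and DESeq2 called 0 of them, against 0% of 14815 genes in edgeR and 0.814% of 13998 genes in DESeq2. DESeq2 gave no p for Ecel1, so it could not have called that gene. An unadjusted p under 0.05 was reached by 1 of the 29 in edgeR, against 3.1% of all genes. That gene was Mas1, also counted among the 12 with higher estimates. It passed the filter on low counts only through 3 SCVS replicates, so the count is not read as a result. In the nitric oxide list, 3 of the 14 tested genes had higher and 11 had lower estimates. Its most abundant gene, Cav1, the caveolin that binds and restrains the synthase, had a fold change of -0.16 (SE 0.71) on the log2 scale. Ddah1, which breaks down the synthase inhibitor ADMA, was named for the smallest p of the list (edgeR, unadjusted p = 0.131). Its log2 fold change was -1.07 (SE 0.66, 95% interval -2.52 to 0.37). Its level was 57.1 ± 24.02 CPM in naive and 27.8 ± 19.7 CPM in SCVS replicates (SD, n = 5 each). The ranges, 29.8 to 84.2 CPM in naive and 9.09 to 50.9 CPM in SCVS replicates, overlapped.

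In the endothelin list 3 of 5 genes were tested and all 3 had higher estimates, with Edn3 at 0.51 (SE 2.19) and Ecel1 at 4.73 (SE 2.68) on the log2 scale. Ecel1 reached 18.4 CPM in a single SCVS replicate. Ece2 had 0 counts in all replicates.

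In the angiotensin and kinin list 7 of 14 genes were tested, 5 with higher and 2 with lower estimates. Atp6ap2, the prorenin receptor, was the most abundant, at 277 CPM in naive and 216 CPM in SCVS replicates. Mas1, the receptor for angiotensin 1-7, had 0 counts in all 5 naive replicates and in SCVS replicates 1 and 3. SCVS replicates 2, 4 and 5 had 181, 124 and 217 counts. The SCVS mean was at least 38.8-fold higher than 3 counts per naive replicate would give. Mas1 passed the filter on low counts only through these 3 SCVS replicates. Its values are therefore given as a description and its test is not read, though it is counted among the 7 tested genes and the 5 with higher estimates. The angiotensin II receptors Agtr1a and Agtr2 and the kinin receptor Bdkrb1 had 0 counts in all replicates.

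In the adrenomedullin and CGRP list 5 of 9 genes were tested, 1 with a higher and 4 with lower estimates. Pam, the enzyme that amidates adrenomedullin, had a fold change of -0.51 (SE 0.45) on the log2 scale. Ramp1, the co-receptor that gives Calcrl its affinity for CGRP, had 8.33 to 72.1 CPM in naive replicates, and 0 counts in SCVS replicates 1 and 3 beside 8.71 to 19.0 CPM in the others. Its fold change was -1.96 (SE 1.64, 95% interval -5.55 to 1.63, edgeR adjusted p = 1.0). The highest value of all 10 was that of Naive replicate 5, without which the fold change was -1.29 on the log2 scale.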

How the data were processed

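LECs were digested from the dura mater with a transcription inhibitor present. The authors deposited raw counts of reads per gene for each replicate, with no normalization. The labels' processing notes list cutadapt 1.9.1, HISAT2 2.0.1, HTSeq 0.6.1 and GRCm38, whereas the methods name mm9. The annotation and the use of strand are not given in the sources used here. Of the 55401 identifiers, 58.8% were in GENCODE M1, which gave exon lengths, and positions are those of RefSeq GRCm38.

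Genes exceeding 5 counts in 3 or more of the 10 replicates were tested with edgeR 4.0.16 (R 4.3.3, limma 3.58.1), TMM scaling and Benjamini-Hochberg adjustment. DESeq2 1.42.0, voom, other scalings and filters, a replicate block and leaving out replicates were alternatives. Permutation tests used 100000 resamples and were two-sided. Amplified reads are not independent molecules, so the floor of 3 counts accounts for counting error alone. The members and lists were chosen with earlier results of these data known. Named were all members, the most abundant gene and the gene of smallest p in each pathway list, any gene called, and the gene most like each member. Replicates are separate pools of animals, and which replicate came from which of the study's cohorts or from which sequencing run is not given in the sources used here. The tests were tried on simulated data in which 200 well-counted genes changed. At the real spread, edgeR recovered 33% and DESeq2 62.5% of these, with 6 and 276 unchanged genes called among 13774. The changes put in were large: among the genes raised, the median estimate was 3.99 on the log2 scale with either tool. Recovery of smaller changes, of the size estimated for the members, was not simulated.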

Additional observations from a re-analysis of the deposited data

Results flagged for a closer look

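In SCVS replicate 4, Ednra stood at 4.91 CPM, against 0.142 CPM in the nearest replicate of its group, and Ednrb at 704 CPM, against 272 CPM. In Naive replicate 2, Adm stood at 88.2 CPM, against 17.7 CPM in the nearest naive replicate. Each lay farther from the rest of its 5 replicates than Dixon's limit of 0.71 of the range allows. Of 19 gene and group combinations tested, chance alone flags about 1 in 20 if values are normally distributed. The limit was applied to CPM without a log transform, and how often chance flags such values was not tested.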

How the results depend on the processing

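Of 234 alternative values of the members' fold changes, 216 kept their direction, 18 changed sign and 0 passed the threshold, with adjusted p between 0.360 and 1.0. Edn1 (from 0.40 to 1.60), Ednrb (0.23 to 1.12), Adm (1.00 to 3.16) and Calcrl (0.016 to 0.87) kept their direction throughout, but not their size. Edn1 was 0.47 with voom and Ednrb 0.23 with the covariate for detected genes. Ace was -1.65 with voom, -1.34 with the replicate block, -1.63 with voom without Naive replicate 5 and -0.083 without Naive replicates 1 and 5. Ramp2 was 0.16 and Ramp3 -0.070 with the replicate block. Ramp3 was -0.062 with voom and 0.013 with DESeq2 on all replicates. Without Naive replicate 5, Ramp3 was -0.16 with DESeq2 and -0.20 with voom, and without Naive replicates 1 and 5 it was -0.11. Of the pathway genes, Cav1 was 0.29 with the replicate block, Edn3 -3.99 and Atp6ap2 0.14 with a covariate for how many genes were detected, Edn3 -0.23 without Naive replicates 1 and 5, and Atp6ap2 0.057 with DESeq2 without Naive replicate 5. With each replicate left out in turn, log2 fold changes ran from -0.97 to 0.13 for Nos3, from -0.61 to 0.053 for Ece1, from -0.62 to 0.50 for Ace, from -0.58 to 0.070 for Ramp2, from -0.30 to 0.23 for Ramp3, from -0.47 to 0.12 for Cav1, from -0.26 to 2.74 for Edn3 and from -0.69 to 0.033 for Atp6ap2. The fits without Naive replicate 5 in DESeq2 and voom, and without Naive replicates 1 and 5, were chosen after seeing the data. The cause of these changes was not tested.

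The relation of Calcrl to Ramp2 ranged from 0.470 to 0.837 with each replicate left out and was 0.00306 without the 2 farthest. Its permutation p, adjusted over 4 relations, was above 0.05 without SCVS replicate 3 (0.0548), SCVS replicate 4 (0.112) and Naive replicate 5 (0.468). That of Nos3 to the blood endothelial score ranged from 0.441 to 0.799 and was 0.267, with adjusted permutation p of 0.0590 without Naive replicate 3, 0.468 without Naive replicate 5, 0.0571 without SCVS replicate 3 and 0.0569 without SCVS replicate 4. That of Calcrl to the lymphatic score ranged from -0.038 to 0.581 and was -0.48.

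Over all genes, edgeR called 0, DESeq2 114 (123 without its filters and 214 without Naive replicate 5), the likelihood ratio test 38 and voom 3 (2 without Naive replicate 5). Genes with an unadjusted p under 0.05 numbered 460 in edgeR, 4941 with no filter, 774 with voom, 142 with either stricter filter and 266 with the replicate block. Same-numbered replicates correlated at -0.02 to 0.149, above 0.1 in 1 of 5 pairs. In 4 of 5 pairs the best match was nevertheless the own number. Whether same-numbered replicates share a cohort or a sequencing run was not tested. Ednra was at or below 3 counts in 9 replicates, and could not be compared.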
